A study of Mus musculus with 36 samples.

Results

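The comparison described here asks what the loss of the fifth CTCF binding site adds, in proximal forelimb, to the loss of 4. It uses 6 of the 36 libraries of an RNA-seq series on mouse embryos at E12.5: the proximal forelimb libraries of Del(CBS1-5) embryos (3) and of Del(CBS1-4) embryos (3), chosen by their titles. CBS stands for CTCF binding site, and both alleles lack sites 1 to 4 of the Hoxd cluster, removed with CRISPR/Cas9, so that the fifth site is the one by which they differ. Wild-type (WT) proximal forelimb (3 libraries) and the same pair of alleles in distal forelimb (3 libraries each) are given where they bear on this step. All embryos are labelled with the hybrid strain B6CBAF1, each library was made from 1 pair of limbs of an individual embryo, and the sources used here do not say from which litters or founder lines the embryos came, or whether they carried 1 or 2 copies of an allele. Poly(A) RNA was read as single ends of 50 bases.

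The Hoxd genes encode homeodomain transcription factors that are arranged along chromosome 2 in the order in which they are used along the body and limb axes. In the limb they are switched on by enhancers in large regulatory domains on either side of the cluster: the domain beyond Hoxd1 is known for driving them in the proximal limb, and the domain beyond Evx2 for driving the Hoxd13 end of the cluster in the digits. CTCF binds between the genes and, by halting cohesin, anchors chromatin loops that set which genes meet which enhancers.

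The proximal label held for the 6 libraries. Summed over a list of 26 skeletal muscle genes, they held 2588 to 3209 CPM in Del(CBS1-5) and 2955 to 4033 CPM in Del(CBS1-4), where CPM are counts relative to library size after TMM scaling (here over all 36 libraries), while distal libraries of both alleles held 70.8 to 207. Genes of proximal limb patterning were likewise higher in these 6 libraries (2730 to 3564 CPM) than in the distal ones (1769 to 1945 CPM). The libraries held 11062069 to 14387283 counts. On the first principal component, with 46.1% of the variance, the alleles were separate, at -33.8, -30.4 and -18.1 for Del(CBS1-5) and at 29.4, 20.2 and 32.7 for Del(CBS1-4). Both alleles had 2 libraries with more Xist than Y-linked RNA and 1 with less. Gene counts do not show whether a CTCF site is deleted, so the allele labels themselves could not be checked.

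Of 15813 genes tested with edgeR's quasi-likelihood F test, 1627 (10.3%) differed between the alleles at a Benjamini-Hochberg adjusted p under 0.05. Of these, 749 (4.74% of the genes tested) were higher in Del(CBS1-5) and 878 (5.55%) lower. Most differences were small. The median absolute log2 fold change of the called genes was 0.41, and 277 of them passed 2-fold, 76 higher and 201 lower in Del(CBS1-5). The libraries of both alleles did not overlap for 1587 of the called genes, while this held for 30.2% of all genes tested (14.9% higher and 15.3% lower in Del(CBS1-5)). The number of calls depended on single embryos: it was 110 without Del(CBS1-5) replicate 1, 240 without Del(CBS1-5) replicate 2, 537 without Del(CBS1-4) replicate 1 and 410 without Del(CBS1-4) replicate 3. Limma on log2(FPKM + 1) called 586 genes higher and 448 lower, so that 56.7% of its calls were higher, against 46% in the count-based test. With the mean log2 CPM of the skeletal muscle list as a covariate, 161 genes were called. Marker sums of red cells and endothelium, given with their lists, differed between the alleles without overlap, while those of muscle overlapped. The part of these cell types in the other differences was not tested.

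No gene of the HoxD cluster was called. The cluster holds 9 listed genes, 8 of them were tested, and 0 passed in either direction, against 10.3% of all genes. Hoxd1 lay under the count filter, with 6, 4 and 1 counts in the Del(CBS1-5) libraries, against 2, 4 and 0 counts in the Del(CBS1-4) libraries. The median log2 fold change of the 8 genes was -0.03, against 0.00 over all genes. The nearest to a change were Hoxd12 and Hoxd11, which lie side by side near the Hoxd13 end of the cluster.

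Hoxd12 (chromosome 2, 74675013 to 74677705 on mm10) had 69.8, 75.9 and 59.9 CPM in the Del(CBS1-5) libraries, against 57.6, 47.9 and 37.6 CPM in the Del(CBS1-4) libraries. Its log2 fold change was 0.53 ± 0.17, adjusted p = 0.0504 in edgeR (SE, n = 3 each), with a 95% interval of 0.18 to 0.87. All 3 Del(CBS1-5) values lay above all 3 Del(CBS1-4) values, and close to the 78.0, 63.9 and 69.1 CPM of WT. Hoxd11 (74682323 to 74684168) had 65.1, 80.2 and 66.5 CPM in the Del(CBS1-5) libraries, against 64.0, 55.8 and 48.9 CPM in the Del(CBS1-4) libraries. The groups did not overlap here either, although the lowest Del(CBS1-5) library and the highest Del(CBS1-4) library nearly met. The log2 fold change of Hoxd11 was 0.33 ± 0.11, adjusted p = 0.0614, with an interval of 0.10 to 0.56. Both genes lie at the edge of the threshold: Hoxd12 was called in 6 of 18 alternative analyses and Hoxd11 in 3 of 18, with adjusted p from 8.14e-09 to 0.244 for Hoxd12 and from 0.000846 to 0.275 for Hoxd11.

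Hoxd13, whose factor is needed for the digits, had 41.0, 46.1 and 47.1 CPM in the Del(CBS1-5) libraries, against 80.6, 58.6 and 22.2 CPM in the Del(CBS1-4) libraries. The Del(CBS1-5) libraries were close to each other, while the Del(CBS1-4) libraries spread widely around them, and the log2 fold change was -0.27 ± 0.41, adjusted p = 0.725. Its WT libraries spread as widely, at 38.4, 90.1 and 33.9 CPM. The same order of Del(CBS1-4) libraries appeared in other genes used mainly in the distal limb: Hoxa13, the paralogue of Hoxd13 in the HoxA cluster, had 15.9, 13.5 and 30.8 CPM in the Del(CBS1-5) libraries, against 61.3, 46.1 and 20.8 CPM in the Del(CBS1-4) libraries. Evx2, the homeobox gene next to Hoxd13, had 1.42, 0.139 and 2.52 CPM in the Del(CBS1-5) libraries, against 7.23, 3.44 and 0.731 CPM in the Del(CBS1-4) libraries. For none of these 3 genes did the groups separate, and the part of the dissection boundary in their spread was not tested.

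The middle and far end of the cluster gave values close to 0. Hoxd10 had 123, 137 and 118 CPM in the Del(CBS1-5) libraries, against 134, 121 and 126 CPM in the Del(CBS1-4) libraries. Its log2 fold change was -0.01 ± 0.08, with a 95% interval of -0.17 to 0.16, and the libraries of both alleles overlapped. Hoxd9 had 47.8, 47.0 and 43.4 CPM in the Del(CBS1-5) libraries, against 50.7, 48.4 and 47.2 CPM in the Del(CBS1-4) libraries, a log2 fold change of -0.08 ± 0.09 with an interval of -0.28 to 0.12. Hoxd8 had 21.9, 25.2 and 23.0 CPM in the Del(CBS1-5) libraries, against 19.3, 26.0 and 26.8 CPM in the Del(CBS1-4) libraries. Its log2 fold change was -0.04 ± 0.11, with an interval of -0.27 to 0.19. Hoxd4 and Hoxd3, at the end away from Hoxd13, were measured less closely, with log2 fold changes of -0.01 ± 0.20 (interval -0.43 to 0.41) and -0.06 ± 0.28 (-0.64 to 0.53). These 2 genes averaged 9.88 ± 1.399 CPM in Del(CBS1-5) and 10.02 ± 0.359 CPM in Del(CBS1-4) for Hoxd4, and 3.34 ± 0.950 CPM in Del(CBS1-5) and 3.46 ± 0.268 CPM in Del(CBS1-4) for Hoxd3 (SD, n = 3).

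Set against WT, Hoxd9, Hoxd8, Hoxd4 and Hoxd3 lay lower in every library of both alleles than in any WT library. Their log2 values relative to WT were -0.54, -0.63, -1.15 and -1.402 in Del(CBS1-5). For Del(CBS1-4) the same genes had -0.46, -0.59, -1.14 and -1.34. Hoxd12 stood at -0.03 in Del(CBS1-5) and at -0.56 in Del(CBS1-4). Of the HoxD genes, Hoxd4, Hoxd8 and Hoxd9 were called, all lower, between Del(CBS1-5) and WT, where 0.0696% of all genes were called (0.0253% higher and 0.0443% lower). None was called between Del(CBS1-4) and WT, where edgeR called 0 genes in all (2229 at an unadjusted p under 0.05, and 98 with DESeq2). Both comparisons with WT use the same WT libraries, and each shares its mutant libraries with the comparison of the alleles, so the values are given side by side only.

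**Figure D1:**
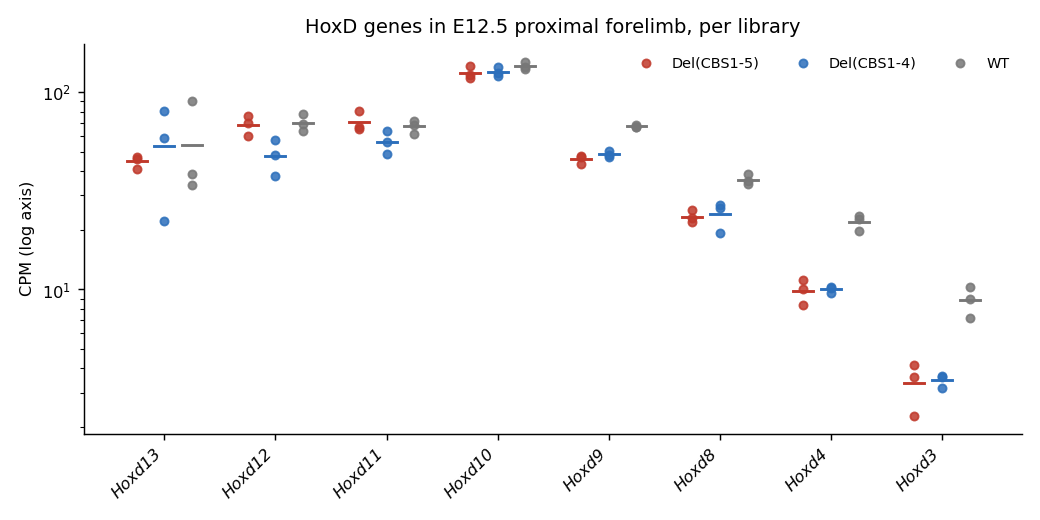
CPM on a log axis of the 8 tested HoxD genes in proximal forelimb libraries of Del(CBS1-5), Del(CBS1-4) and WT, 1 point per library, with a bar at the mean of 3. The Del(CBS1-5) and Del(CBS1-4) points do not overlap for Hoxd12 and Hoxd11, they overlap for the other 6 genes, and both alleles lie below WT for Hoxd9, Hoxd8, Hoxd4 and Hoxd3.

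The same allele step in distal forelimb gave other values for the middle of the cluster. There Hoxd10 had 87.9, 79.2 and 88.9 CPM in distal Del(CBS1-5) libraries, against 51.6, 56.6 and 54.6 CPM in distal Del(CBS1-4) libraries, and every Del(CBS1-5) library was higher. Its distal log2 fold change was 0.65 ± 0.07, and the difference between tissues (proximal minus distal), tested as an interaction in edgeR, was -0.68 ± 0.11, adjusted p = 0.00335. Hoxd9 had 19.4, 16.5 and 19.1 CPM in distal Del(CBS1-5) libraries, against 6.71, 7.79 and 7.31 CPM in distal Del(CBS1-4) libraries. The distal log2 fold change of Hoxd9 was 1.33 ± 0.22, and the interaction -1.43 ± 0.24, adjusted p = 0.00408. Both interactions stayed past the threshold in all 16 alternatives tried, from -0.74 to -0.61 for Hoxd10 and from -1.50 to -1.37 for Hoxd9. For Hoxd12 the tissues were not told apart: the distal log2 fold change was 0.38 ± 0.09 and the interaction 0.13 ± 0.20, adjusted p = 0.865. Over all genes, 117 of 16292 (0.718%) had a called interaction, 0.368% higher and 0.35% lower in the proximal than in the distal effect, or 244 with a block for the embryo. That count rested on single libraries too. Of the proximal libraries, it was 24 without Del(CBS1-5) replicate 1, 46 without Del(CBS1-5) replicate 2 and 69 without Del(CBS1-4) replicate 1. Of the distal ones, it was 27, 20 and 294 without Del(CBS1-5) replicate 1, 2 and 3, and 32 and 62 without Del(CBS1-4) replicate 1 and 3. In distal tissue alone, 16.7% of genes were called, 7.74% higher and 8.94% lower (32.2% at an unadjusted p under 0.05).

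**Figure D2:**
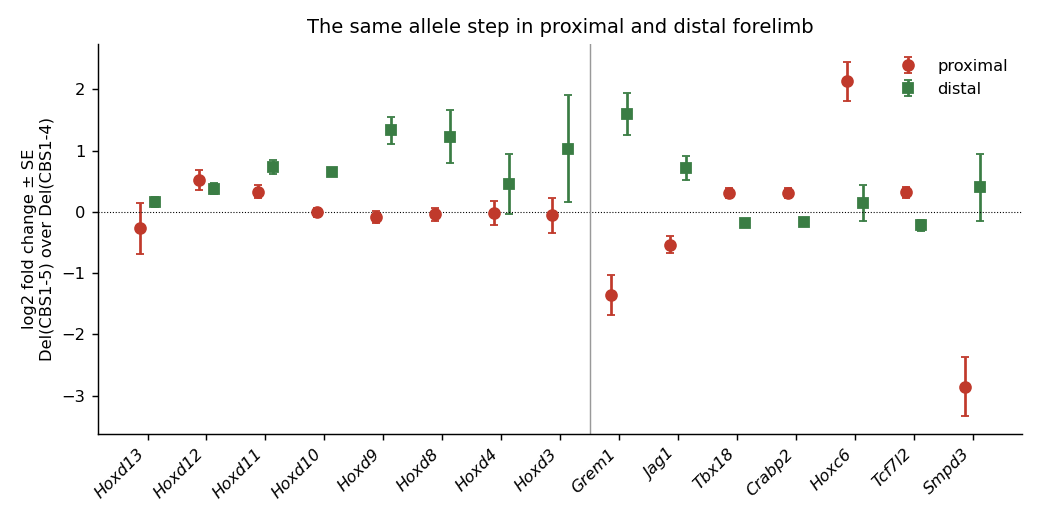
Log2 fold change of Del(CBS1-5) over Del(CBS1-4) with its SE in proximal (circles) and distal (squares) forelimb, for the 8 HoxD genes and for 7 other named genes with a called interaction to the right of the grey line. Proximal values of Hoxd10 and Hoxd9 sit at -0.01 and -0.08, below their distal values of 0.65 and 1.33.

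Around the cluster, called genes were about as frequent as over all genes. In the 3 Mb of chromosome 2 from 73000000 to 76000000, 35 genes were tested, 2 rose and 2 fell in Del(CBS1-5), against 4.74% higher and 5.55% lower of all genes, or 10.3% in both directions. Scrn3, which encodes secernin 3, rose, with 23.5, 22.4 and 22.4 CPM in the Del(CBS1-5) libraries, against 18.05, 17.3 and 16.2 CPM in the Del(CBS1-4) libraries (log2 fold change 0.41 ± 0.08, adjusted p = 0.00747). The gene lies at 73312601 to 73337818, beyond Evx2. Hnrnpa3, which encodes an RNA-binding protein, rose by 0.28 ± 0.07 on the log2 scale (adjusted p = 0.0195). Agps, an enzyme of ether lipid synthesis, fell slightly, with 132, 129.7 and 134 CPM in the Del(CBS1-5) libraries, against 154, 164 and 153 CPM in the Del(CBS1-4) libraries (log2 fold change -0.25 ± 0.07, adjusted p = 0.0356). The transcript model 2600014E21Rik fell further, with 3.99, 4.99 and 5.14 CPM in the Del(CBS1-5) libraries, against 17.1, 9.40 and 13.96 CPM in the Del(CBS1-4) libraries (log2 fold change -1.52 ± 0.31, adjusted p = 0.00914). The direct neighbours gave log2 fold changes of -1.53 ± 0.99 for Evx2, 0.10 ± 0.10 for Lnpk, which encodes an endoplasmic reticulum protein, and 0.09 ± 0.06 for Mtx2, which encodes a mitochondrial import protein. None of these 3 was called. Without Del(CBS1-5) replicate 1, none of Scrn3, Hnrnpa3, Agps and 2600014E21Rik was called. 2600014E21Rik kept its call without any other single library and lost it with the muscle covariate, which left an adjusted p of 0.0583. Hnrnpa3 and Agps also lost their calls without Del(CBS1-5) replicate 2 and without Del(CBS1-4) replicate 1 or 3, and Agps without Del(CBS1-4) replicate 2.

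Red cell genes gave the clearest group difference. The list of erythroid genes had 11 tested members. Of these, 8 rose in Del(CBS1-5) and 1 fell, against 4.74% and 5.55% of all genes, and the median log2 fold change was 1.28. Summed over the list, the libraries held 3266 to 3680 CPM in Del(CBS1-5), against 1640 to 2286 CPM in Del(CBS1-4), while the WT libraries, at 2005 to 2631 CPM, overlapped Del(CBS1-4) and stayed below Del(CBS1-5). In distal forelimb, likewise, 8 of the 11 genes rose and 1 fell, against 7.74% and 8.94% of all genes there. At E12.5 the blood of the limb carries nucleated primitive red cells from the yolk sac, which make embryonic globins, and definitive red cells from the fetal liver, which make adult globins, begin to enter it. In these bulk samples, fewer cells of a type and less RNA per cell cannot be told apart.

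The promoters of 4 globin genes of this group are shown because 3 of the genes were called higher and 1 lower. The values of Hbb-bt and Hbb-bs among them are uncertain, as given below. The windows run from 120 bases before to 20 bases after the annotated start, on the gene's own strand, in RefSeq's GRCm38.p6. Capitals mark matches on either strand to the CACCC box, the CCAAT box, the GATA motif (searched as AGATAA and as TGATAA) and the TATA box (searched as TATAAA and as CATAAA).
Hba-x (chr11:32276480-32276619, plus strand): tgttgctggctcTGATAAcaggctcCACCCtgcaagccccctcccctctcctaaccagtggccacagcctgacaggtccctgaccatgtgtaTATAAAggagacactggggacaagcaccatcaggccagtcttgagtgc
Hbb-y (chr7:103853188-103853327, minus strand): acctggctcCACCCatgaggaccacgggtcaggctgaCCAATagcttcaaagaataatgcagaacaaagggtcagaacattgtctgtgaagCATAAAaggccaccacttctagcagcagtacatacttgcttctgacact
Hbb-bt (chr7:103813904-103814043, minus strand): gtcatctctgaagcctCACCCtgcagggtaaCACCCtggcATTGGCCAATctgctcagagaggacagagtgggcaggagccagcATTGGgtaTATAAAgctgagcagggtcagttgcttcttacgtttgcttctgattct
Hbb-bs (chr7:103827909-103828048, minus strand): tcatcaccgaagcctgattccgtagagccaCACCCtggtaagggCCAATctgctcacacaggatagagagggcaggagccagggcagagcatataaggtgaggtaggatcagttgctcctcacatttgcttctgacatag
All 4 windows hold CACCC, the letters of the box that Klf1 is known to bind in the adult beta globin promoter, as do 35.1% of 32851 promoter windows of the same length. CCAAT is in the 3 beta-type windows and in 23.1% of all windows. TGATAA, a form of the GATA motif, is in Hba-x (starting at base -108 from the start) and in none of the other 3, while 8.68% of all windows hold this motif in either form. TATAAA or CATAAA is in Hba-x, Hbb-y and Hbb-bt and in 11.9% of all windows. The Hbb-bs window holds the similar letters catataagg, which neither searched form matches, so it is not shown to lack a TATA box. A match of letters is a description and not a mapped site.

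Of the changed red cell genes, 3 encode embryonic globins. Hba-x, the embryonic alpha-like globin, had 923, 861 and 604 CPM in the Del(CBS1-5) libraries, against 224, 166 and 212 CPM in the Del(CBS1-4) libraries. The log2 fold change was 1.99 ± 0.28, adjusted p = 0.00204, and the lowest Del(CBS1-5) library lay far above the highest Del(CBS1-4) library. Hbb-bh1, an embryonic beta-like globin, had 321, 269.5 and 179.6 CPM in the Del(CBS1-5) libraries, against 45.5, 34.4 and 45.6 CPM in the Del(CBS1-4) libraries (log2 fold change 2.62 ± 0.45, adjusted p = 0.00538). For both genes, WT libraries spread over the gap between the alleles, with 570.2, 243 and 474 CPM for Hba-x and 184, 48.0 and 121 CPM for Hbb-bh1. Hbb-y, another embryonic beta-like globin, had 2088, 2154 and 2136 CPM in the Del(CBS1-5) libraries, against 1611, 1202 and 1666 CPM in the Del(CBS1-4) libraries. It rose less, with a log2 fold change of 0.51 ± 0.13, adjusted p = 0.0202.

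Genes of the red cell membrane and of red cell control rose with them. Slc4a1, the anion exchanger band 3, had 91.5, 82.6 and 67.0 CPM in the Del(CBS1-5) libraries, against 34.3, 27.5 and 33.4 CPM in the Del(CBS1-4) libraries (log2 fold change 1.34 ± 0.20, adjusted p = 0.00260). Epb42, a membrane skeleton protein, rose by 1.62 ± 0.31. Klf1, the erythroid transcription factor, rose by 1.28 ± 0.32 (adjusted p = 0.0206). The blood group gene Rhd and the erythroid nuclear factor Hemgn, found by the size of their change and not through the list, gave the largest 2 rises among the genes named by that rule. Rhd had 4.56, 4.23 and 2.88 CPM in the Del(CBS1-5) libraries, against 0.381, 0.359 and 0.219 CPM in the Del(CBS1-4) libraries, without overlap. Hemgn rose by 3.47 ± 0.63 and Sptb, the red cell beta spectrin, by 1.68 ± 0.24.

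Adult globins did not follow one direction. Hbb-bs had 16.3, 21.3 and 18.7 CPM in the Del(CBS1-5) libraries, against 106, 43.8 and 114 CPM in the Del(CBS1-4) libraries. It fell, with a log2 fold change of -2.22 ± 0.49, adjusted p = 0.0125, whereas its neighbouring copy Hbb-bt rose by 0.89 ± 0.27 (adjusted p = 0.0436). The copies share sequence: 53.2% of the 50-base words of Hbb-bs transcripts occur in those of Hbb-bt, so that single reads could be assigned to either, and each value is uncertain. Summed over both copies, the libraries held 50.8, 73.2 and 56.3 CPM in Del(CBS1-5), against 125, 67.1 and 138 CPM in Del(CBS1-4). These sums overlap. The adult alpha globins Hba-a1 and Hba-a2 had log2 fold changes of 0.06 ± 0.13 and 1.03 ± 0.98 and were not called. The Hba-a2 value rests on a single low library, with 432, 1 and 400 counts in Del(CBS1-4), and 89.3% of the 50-base words of Hba-a2 transcripts occur in those of Hba-a1, so both values are uncertain. Without Del(CBS1-5) replicate 1, 4 erythroid genes were called higher, and 5 without Del(CBS1-5) replicate 2 or without Del(CBS1-4) replicate 2. With the muscle covariate 4 were. Hbb-bs lost its call without Del(CBS1-5) replicate 1, Del(CBS1-5) replicate 2 or Del(CBS1-4) replicate 3. Hbb-bt kept its call in only 1 of the 6 fits that left out 1 library.

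Many cartilage genes fell. Of 22 tested genes of chondrogenesis, 11 (50%) fell in Del(CBS1-5) and 0 rose, against 5.55% and 4.74% of all genes, with a median log2 fold change of -0.63. Summed, these genes held 4383 to 5759 CPM in Del(CBS1-5), against 5981 to 8440 CPM in Del(CBS1-4) and 5174 to 5611 CPM in WT. The genes that fell belong mainly to the cartilage matrix and not to its early control. Acan, the large proteoglycan aggrecan, had 104, 92.3 and 155 CPM in the Del(CBS1-5) libraries, against 173, 170.4 and 341 CPM in the Del(CBS1-4) libraries (log2 fold change -0.97 ± 0.27, adjusted p = 0.0300). Matn4, a matrilin, had 189, 178 and 235 CPM in the Del(CBS1-5) libraries, against 286, 291 and 388 CPM in the Del(CBS1-4) libraries and fell by 0.68 ± 0.14 on the log2 scale. Collagen IX fell in its 3 chains, with log2 fold changes of -0.55 for Col9a1, -0.45 for Col9a2 and -0.69 for Col9a3. In each of these 5 genes Del(CBS1-4) replicate 3 was the highest of the 6 libraries, and Del(CBS1-5) replicate 3 the highest of its allele.

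Genes of maturing cartilage were among those with the largest falls. Smpd3, a sphingomyelinase of mineralizing cartilage and bone, had 1.21, 0.762 and 2.52 CPM in the Del(CBS1-5) libraries, against 11.1, 5.67 and 14.7 CPM in the Del(CBS1-4) libraries. The log2 fold change was -2.85 ± 0.48, adjusted p = 0.00499, and WT, at 1.10, 2.31 and 1.09 CPM, was at the level of Del(CBS1-5). Comp, the cartilage oligomeric matrix protein, had 2.14, 1.87 and 7.12 CPM in the Del(CBS1-5) libraries, against 23.4, 8.47 and 32.4 CPM in the Del(CBS1-4) libraries (log2 fold change -2.59 ± 0.64, adjusted p = 0.0195). Panx3, a channel of maturing chondrocytes, fell by 3.06 ± 0.76. Ihh, the hedgehog ligand of the growth plate, had 7.90, 10.04 and 12.1 CPM in the Del(CBS1-5) libraries, against 16.7, 15.6 and 17.6 CPM in the Del(CBS1-4) libraries and fell by 0.74 ± 0.19. Sox9, the transcription factor that starts the cartilage programme, was not called, with 255, 237 and 303 CPM in the Del(CBS1-5) libraries, against 231, 220.0 and 207 CPM in the Del(CBS1-4) libraries (log2 fold change 0.27 ± 0.10, adjusted p = 0.0973). Col2a1, the main cartilage collagen, was at -0.34 ± 0.11, adjusted p = 0.0509.

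Joint and connective tissue genes moved the same way. Of 11 genes of the joint interzone, the tissue that forms between cartilage elements, 4 (36.4%) fell and 0 rose, against 5.55% and 4.74% of all genes: Erg, an ETS factor also expressed in endothelium, Wnt4, Prg4, the joint lubricant lubricin, and Enpp2, the enzyme autotaxin. Erg had 70.0, 71.3 and 77.5 CPM in the Del(CBS1-5) libraries, against 113, 102 and 104 CPM in the Del(CBS1-4) libraries (log2 fold change -0.55 ± 0.10, adjusted p = 0.00559), and Wnt4 had 31.9, 29.6 and 37.0 CPM in the Del(CBS1-5) libraries, against 45.2, 41.8 and 54.2 CPM in the Del(CBS1-4) libraries (-0.53 ± 0.11, adjusted p = 0.00915). Prg4 was at or near 0 in 2 of the Del(CBS1-5) libraries, with 0.142, 0 and 1.17 CPM in the Del(CBS1-5) libraries, against 5.03, 3.23 and 9.43 CPM in the Del(CBS1-4) libraries. Its log2 fold change was -3.89 ± 0.87, adjusted p = 0.0134. Of 16 tendon and connective tissue genes, 8 (50%) fell and 1 rose, again against 5.55% and 4.74% of all genes. Dcn, the matrix proteoglycan decorin, had 44.5, 58.6 and 64.4 CPM in the Del(CBS1-5) libraries, against 105, 86.3 and 131 CPM in the Del(CBS1-4) libraries (log2 fold change -0.95 ± 0.26, adjusted p = 0.0307). Fibrillar and microfibrillar collagens fell with it. Col1a1 had 786, 912 and 1103 CPM in the Del(CBS1-5) libraries, against 1596, 1212 and 1837 CPM in the Del(CBS1-4) libraries (log2 fold change -0.73 ± 0.19, adjusted p = 0.0223). Col6a3 had 202, 219.8 and 289.6 CPM in the Del(CBS1-5) libraries, against 428, 368 and 531 CPM in the Del(CBS1-4) libraries and fell by 0.90 ± 0.18, with Col6a1 at -0.85 ± 0.20 and Col5a1 at -0.57 ± 0.14. Scx, the tendon transcription factor, fell by 0.32 ± 0.08 (adjusted p = 0.0222), and Tcf7l2, which marks muscle connective tissue, rose by 0.32 ± 0.08.

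These 3 lists rest on few embryos. For chondrogenesis the count of falls was 1 without Del(CBS1-5) replicate 1 or replicate 2, 2 without Del(CBS1-4) replicate 3 and 7 without Del(CBS1-4) replicate 1. The interzone count was 1 without Del(CBS1-5) replicate 1 or replicate 2. That of tendon was 0 without either of these 2 libraries, 1 without Del(CBS1-4) replicate 3, 2 without Del(CBS1-4) replicate 1 and 13 without Del(CBS1-5) replicate 3. With the muscle covariate, 1 gene of each list was called lower. Every called gene named from these lists kept its sign in all alternatives. That is not a separate test, because the genes were picked as called in the same libraries. In distal forelimb the same step gave 0 rises and 16 falls among 22 chondrogenesis genes, against 7.74% and 8.94% of all genes there.

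Muscle genes moved in both directions. Of 26 tested skeletal muscle genes, 6 (23.1%) fell and 2 (7.69%) rose, against 5.55% and 4.74% of all genes. Those that fell encode parts of the contractile apparatus: Acta1, the skeletal alpha actin, had 91.7, 134 and 136 CPM in the Del(CBS1-5) libraries, against 229.6, 222 and 304 CPM in the Del(CBS1-4) libraries (log2 fold change -1.07 ± 0.22, adjusted p = 0.00922). Myh8, the perinatal myosin heavy chain, had 19.4, 29.9 and 48.0 CPM in the Del(CBS1-5) libraries, against 82.2, 75.1 and 115 CPM in the Del(CBS1-4) libraries (-1.50 ± 0.30, adjusted p = 0.00884). The troponins Tnnt3 and Tnnc2 fell, with log2 fold changes of -0.95 ± 0.17 and -0.74 ± 0.15. The 2 that rose act in migrating muscle precursors: Met, the receptor for hepatocyte growth factor, had 50.2, 52.7 and 43.0 CPM in the Del(CBS1-5) libraries, against 31.3, 41.5 and 33.0 CPM in the Del(CBS1-4) libraries (log2 fold change 0.46 ± 0.11, adjusted p = 0.0138), and Lbx1, a homeobox gene of these precursors, rose by 0.70 ± 0.20. Myog, the differentiation factor myogenin, was not called (0.06 ± 0.11, adjusted p = 0.746). Not every contractile gene ran lower: Actc1, the cardiac alpha actin, was not called. It had 7821, 10593 and 6488 unscaled counts in the Del(CBS1-5) libraries, against 4424, 5326 and 6331 in the Del(CBS1-4) libraries. Without overlap, 4 genes of the list were higher in Del(CBS1-5) and 14 lower, against 14.9% and 15.3% of all genes. Summed muscle levels overlapped, with 2591 to 3215 CPM in Del(CBS1-5) and 2946 to 4043 CPM in Del(CBS1-4), scaled over the 18 proximal libraries. Without Del(CBS1-5) replicate 1, 1 muscle gene was called lower. None was called higher without Del(CBS1-5) replicate 1, Del(CBS1-5) replicate 2, Del(CBS1-4) replicate 1 or Del(CBS1-4) replicate 3, and 4 were without Del(CBS1-5) replicate 3.

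Several genes of proximal limb patterning rose. Of 21 tested, 8 (38.1%) rose in Del(CBS1-5) and 1 fell, against 4.74% and 5.55% of all genes, with a median log2 fold change of 0.18. Shox2, the homeobox gene needed for the humerus, had 479.8, 449 and 361 CPM in the Del(CBS1-5) libraries, against 248, 285 and 271 CPM in the Del(CBS1-4) libraries. Its log2 fold change was 0.68 ± 0.11, adjusted p = 0.00378, and all Del(CBS1-5) libraries were above all Del(CBS1-4) libraries. Alx4, which restricts posterior identity in the early bud, had 82.6, 52.3 and 60.9 CPM in the Del(CBS1-5) libraries, against 34.1, 37.1 and 33.4 CPM in the Del(CBS1-4) libraries (log2 fold change 0.90 ± 0.21, adjusted p = 0.0161). Meis1, a homeobox gene that marks the most proximal limb, had 27.3, 22.4 and 21.3 CPM in the Del(CBS1-5) libraries, against 9.21, 13.2 and 19.3 CPM in the Del(CBS1-4) libraries (log2 fold change 0.77 ± 0.21, adjusted p = 0.0267), and Pbx3, which encodes a partner of Hox and Meis proteins, rose by 0.32 ± 0.07. Irx5, an Iroquois factor, was the 1 that fell (-0.69 ± 0.15, adjusted p = 0.0105). Without Del(CBS1-5) replicate 1 the count of rises was 1, and it was 2 without Del(CBS1-5) replicate 2 or without Del(CBS1-4) replicate 1, while the muscle covariate left 1.

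Some Hox genes of other clusters that are used in the shoulder and trunk rose too. Of 17 tested HoxB and HoxC genes, 4 (23.5%) rose and 0 fell, against 4.74% and 5.55% of all genes. Hoxc6 had 14.7, 6.37 and 8.38 CPM in the Del(CBS1-5) libraries, against 2.67, 1.94 and 2.12 CPM in the Del(CBS1-4) libraries (log2 fold change 2.13 ± 0.32, adjusted p = 0.00260), and Hoxc5 had 17.5, 6.44 and 7.21 CPM in the Del(CBS1-5) libraries, against 0.914, 1.58 and 3.95 CPM in the Del(CBS1-4) libraries (2.272 ± 0.50, adjusted p = 0.0126). For both, Del(CBS1-5) replicate 1 was the highest library. Hoxc4 rose by 1.08 ± 0.30 and Hoxb2 by 0.88 ± 0.20. The count of rises was 1 without Del(CBS1-5) replicate 1 or without Del(CBS1-4) replicate 1, and 2 without Del(CBS1-4) replicate 3. In the HoxA cluster, 1 of 14 genes rose, Hoxa7 (0.42 ± 0.12, adjusted p = 0.0335), and 0 fell. Hoxa7 kept its call without Del(CBS1-4) replicate 2 and lost it without any other library.

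Among 25 genes of distal limb patterning, 1 rose (4%) and 2 fell (8%), near the 4.74% and 5.55% of all genes. No fall was called without Del(CBS1-5) replicate 1, Del(CBS1-5) replicate 2 or Del(CBS1-4) replicate 3, and 1 was without Del(CBS1-4) replicate 1. Grem1, a secreted BMP antagonist that sustains the apical ridge, had 20.2, 26.0 and 47.1 CPM in the Del(CBS1-5) libraries, against 71.3, 74.1 and 90.5 CPM in the Del(CBS1-4) libraries. It fell by 1.36 ± 0.32 on the log2 scale (adjusted p = 0.0157), whereas in distal tissue it had 23.2, 25.0 and 14.3 CPM in distal Del(CBS1-5) libraries, against 6.28, 8.50 and 5.92 CPM in distal Del(CBS1-4) libraries, a rise of 1.59 ± 0.34. The interaction was -2.97 ± 0.52, adjusted p = 0.00549, and it stayed past the threshold in all 16 alternatives. Jag1, a Notch ligand, fell by 0.53 ± 0.14. Aldh1a2, the main enzyme of retinoic acid synthesis in the embryo, rose by 0.47 ± 0.13, and Crabp2, a retinoic acid binding protein, by 0.31 ± 0.08. They were the 2 of 13 retinoic acid genes that rose (15.4%, against 4.74% of all genes), and 0 fell. No retinoic acid gene was called without Del(CBS1-5) replicate 1, Del(CBS1-5) replicate 2, Del(CBS1-4) replicate 1 or Del(CBS1-4) replicate 3, or with the muscle covariate, and 1 was without Del(CBS1-5) replicate 3. In the Hedgehog list of 13 genes, 2 fell, Ihh and Cdon, a co-receptor (-0.39 ± 0.11 for Cdon), and none fell without Del(CBS1-5) replicate 1, Del(CBS1-5) replicate 2, Del(CBS1-4) replicate 1 or Del(CBS1-4) replicate 3.

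**Figure D3:**
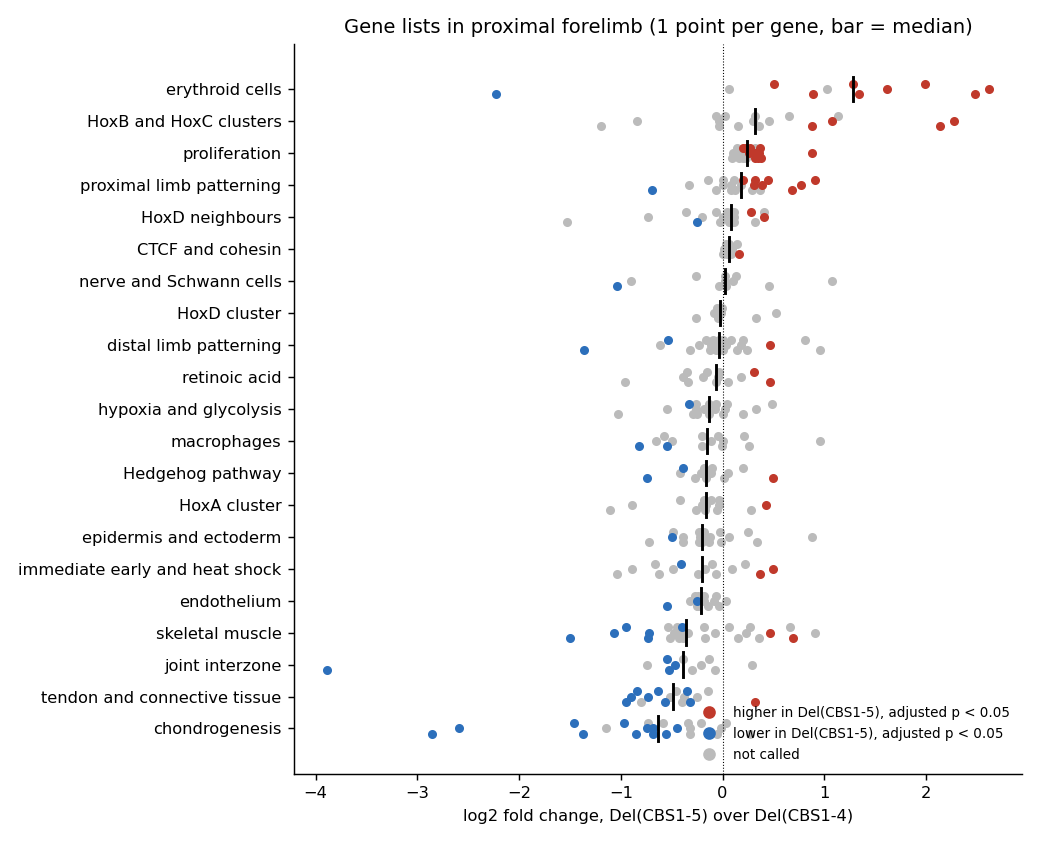
Log2 fold change of Del(CBS1-5) over Del(CBS1-4) for every tested member of each gene list, 1 point per gene, red where called higher, blue where called lower and grey where not called, with a black bar at the list's median. Erythroid genes (median 1.28) lie at the right, chondrogenesis (-0.63) at the left, and the HoxD cluster (-0.03) near 0.

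Many cell cycle genes rose, each by little. Of 20 tested, 11 (55%) rose and 0 fell, against 4.74% and 5.55% of all genes, and all 20 had log2 fold changes above 0, from 0.09 to 0.88. Mcm2, a subunit of the replicative helicase, had 329, 320.4 and 277 CPM in the Del(CBS1-5) libraries, against 245, 253 and 232 CPM in the Del(CBS1-4) libraries (log2 fold change 0.34 ± 0.07, adjusted p = 0.0110). Bub1b, a mitotic checkpoint kinase, rose by 0.38 ± 0.08 and Top2a, the topoisomerase of dividing cells, by 0.32 ± 0.08. Summed, the list held 4405 to 4628 CPM in Del(CBS1-5), against 3491 to 4228 CPM in Del(CBS1-4) and 4133 to 4496 CPM in WT. The count of rises was 1 without Del(CBS1-5) replicate 1, without Del(CBS1-5) replicate 2 or without Del(CBS1-4) replicate 3, and 3 without Del(CBS1-4) replicate 1. With the muscle covariate it was 1.

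Of 10 genes for CTCF and cohesin proteins, 1 was called, the same share as the 10.3% of all genes. This was Ctcf, which had 224, 212 and 218 CPM in the Del(CBS1-5) libraries, against 188, 211 and 185 CPM in the Del(CBS1-4) libraries, with a log2 fold change of 0.16 ± 0.05, adjusted p = 0.0448. The call was lost in 15 of 18 alternatives, with adjusted p from 0.00984 to 0.239, and without any single library other than Del(CBS1-4) replicate 2.

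Markers of other cell types gave few calls, all of them falls. Against 5.55% of all genes, 2 of 14 endothelial genes (14.3%) fell (Erg, and Cdh5, the endothelial cadherin, at -0.25 ± 0.07). Of 14 macrophage genes 2 (14.3%) fell, Csf1r, the receptor for macrophage colony stimulating factor (-0.54 ± 0.12), and C1qa, a complement subunit (-0.83 ± 0.22). Nerve and Schwann cell genes had 1 fall among 11, Stmn2, a neuronal stathmin (-1.03 ± 0.27), and epidermal genes 1 among 20, Grhl3 (-0.49 ± 0.14). Genes that were not called moved both ways. Without overlap of libraries, 1 macrophage gene was higher in Del(CBS1-5) and 4 lower, against 14.9% and 15.3% of all genes. In the same order it was 2 and 1 for nerve, 2 and 6 for epidermis, and 0 and 6 for endothelium. Without single libraries the number of falls ran from 1 to 6 for endothelium (6 without Del(CBS1-5) replicate 3, and 1 without any other library except Del(CBS1-4) replicate 2). For macrophages it was 5 without Del(CBS1-5) replicate 3, 4 without Del(CBS1-4) replicate 2, 1 without Del(CBS1-4) replicate 1 and 0 without any of the other 3 libraries. For nerve it was 2 and for epidermis 3 without Del(CBS1-5) replicate 3. Without Del(CBS1-4) replicate 2 it was 1 for nerve and 2 for epidermis, and without any of the other 4 libraries 0 for both. Summed levels ran lower in Del(CBS1-5) than in Del(CBS1-4) without overlap for endothelium (546 to 636 CPM, against 646 to 710 CPM) and narrowly for epidermis (551 to 665.9 CPM, against 666.1 to 752 CPM), and overlapped for macrophages and nerve. Among 14 immediate early and heat shock genes there were 2 rises (14.3%), Ier2 (0.50 ± 0.09) and Hsph1 (0.37 ± 0.09). The 1 fall among them (7.14%) was Jun (-0.41 ± 0.13). Over all genes, 4.74% rose and 5.55% fell. Jun kept its call without Del(CBS1-5) replicate 3 and lost it without any other library. Of 18 entries of hypoxia and glycolysis, among them 2 gene models with the symbol Aldoa, 0 rose and 1 fell (5.56%, near the share of all genes). The 1 that fell was Pfkfb3, a regulator of glycolysis (-0.33 ± 0.07).

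Other large rises were mixed. Eldr, a non-coding RNA next to Egfr, had 8.61, 16.1 and 7.57 CPM in the Del(CBS1-5) libraries, against 2.06, 1.29 and 1.24 CPM in the Del(CBS1-4) libraries (log2 fold change 2.82 ± 0.49, adjusted p = 0.00538). Calb2, the calcium binding protein calretinin, rose by 1.86 ± 0.49, Crym, a thyroid hormone binding crystallin, by 1.71 ± 0.29, Car2, a carbonic anhydrase abundant in red cells, by 1.71 ± 0.26, Pkhd1l1, a large membrane protein, by 1.76 ± 0.31 and Sh2d5, an adaptor protein, by 1.80 ± 0.41. Of 696 genes that met the naming rule in this direction, 14 were taken and 3 unnamed models were passed over. These 3 models rose more than any gene taken, by 4.06 to 8.98 on the log2 scale. The value of 8.98 is that of Gm16380, which had 0 CPM in every Del(CBS1-4) library, so its size is not measured. WT libraries of Gm16380 had 0, 2.12 and 2.11 CPM. Of 105 called genes followed through 18 alternatives, 17 kept their call in each one run on them. Among these were Rhd, Hemgn, Hbb-bh1, Hba-x, Slc4a1, Sptb and Car2 of the red cell genes, and Eldr, Pkhd1l1, Crym, Hoxc6, Ier2, Pcna, Smpd3, Erg and Tnnt3.

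Among the largest falls were matrix and membrane genes. Slc15a2, a peptide transporter, had 7.62, 1.32 and 0.991 CPM in the Del(CBS1-5) libraries, against 43.5, 29.7 and 37.0 CPM in the Del(CBS1-4) libraries, and 17.3, 37.1 and 0.544 CPM in WT. Its log2 fold change was -3.43 ± 1.004, adjusted p = 0.0374, and the call was lost in 10 of 18 alternatives. Aqp1, a water channel of vessels and red cells, had 7.69, 5.96 and 13.97 CPM in the Del(CBS1-5) libraries, against 45.5, 24.8 and 40.6 CPM in the Del(CBS1-4) libraries (log2 fold change -2.03 ± 0.44, adjusted p = 0.0111), and Chodl, a membrane lectin, had 6.48, 7.41 and 10.6 CPM in the Del(CBS1-5) libraries, against 40.7, 23.0 and 46.9 CPM in the Del(CBS1-4) libraries (-2.19 ± 0.53, adjusted p = 0.0175). The others were Grik3, a glutamate receptor subunit (-2.61 ± 0.52), Tnn, the matrix protein tenascin N (-2.15 ± 0.42), Ltbp2, which associates with elastic microfibrils (-2.11 ± 0.51), Gsg1l, a subunit of AMPA receptor complexes (-2.08 ± 0.39), and Dusp8, a phosphatase of MAP kinases (-2.01 ± 0.44). Eif3j2, a near copy of the translation factor gene Eif3j1, had 0.142, 0 and 0.451 CPM in the Del(CBS1-5) libraries, against 6.55, 7.53 and 7.02 CPM in the Del(CBS1-4) libraries, and 0.392, 5.06 and 4.08 CPM in WT. Of 772 genes that met the rule, 14 were taken and 9 unnamed models passed over. The largest falls were among the models passed over: Gm4864 (-9.83), Gm4737 (-9.25) and Gm13328 (-8.68) had 0 CPM in every Del(CBS1-5) library. The size of these 3 falls is therefore not measured. Their Del(CBS1-4) means were 8.21, 5.51 and 3.69 CPM, while 3 counts over the Del(CBS1-5) group would be 0.0758 CPM. WT libraries had 9.64, 8.74 and 0 CPM for Gm4864, and 10.7, 9.11 and 0 CPM for Gm4737. For Gm13328 they had 3.45, 2.93 and 1.70 CPM.

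Copies moved in opposite directions. Eif3j1, on chromosome 2, had 11.8, 11.6 and 10.1 CPM in the Del(CBS1-5) libraries, against 2.97, 3.30 and 4.24 CPM in the Del(CBS1-4) libraries while Eif3j2 fell, and 90.8% of the 50-base words of Eif3j2 transcripts occur in those of Eif3j1. Summed, the pair held 11.4 ± 0.730 CPM in Del(CBS1-5) and 10.5 ± 0.907 CPM in Del(CBS1-4) (SD, n = 3), so that the sums overlap. Pcna, the sliding clamp of DNA replication, had 114, 115 and 96.4 CPM in the Del(CBS1-5) libraries, against 60.001, 64.7 and 52.5 CPM in the Del(CBS1-4) libraries (log2 fold change 0.88 ± 0.12, adjusted p = 0.00110). Its processed copy Pcna-ps2 had 0.0712, 0.416 and 0.451 CPM in the Del(CBS1-5) libraries, against 22.2, 25.2 and 22.5 CPM in the Del(CBS1-4) libraries, and 63.8% of its 50-base words occur in Pcna. The sum of both was 114, 115 and 96.8 CPM in Del(CBS1-5), against 82.2, 89.8 and 75.0 CPM in Del(CBS1-4). The sums do not overlap, but they differ by less than Pcna alone. Part of the rise of Pcna is therefore uncertain, since reads of such copies can be assigned to either.

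Chromosome 2, which carries the Hoxd cluster, held a larger share of called genes than any other autosome. Of its 1273 tested genes, 186 (14.6%) were called, 89 higher and 97 lower in Del(CBS1-5). On the other autosomes the share ran from 7.99% to 13%. Within 10 Mb of Hoxd13, 11 of 108 genes (10.2%) were called, 6.67% on the Evx2 side and 14.6% on the Hoxd1 side. Further out on the Hoxd1 side, bins of 10 Mb up to 100 Mb ran from 13.9% to 29.6%. The highest was the bin from 20 to 30 Mb (8 of 27 genes). From 40 to 60 Mb beyond Hoxd13 on that side, a stretch chosen after its values were seen, 58 of 219 (26.5%) were called, 30 higher and 28 lower. Named genes of that stretch, chosen in the same way, include Polr1b, a subunit of RNA polymerase I, with 65.0, 61.5 and 61.3 CPM in the Del(CBS1-5) libraries, against 36.02, 36.6 and 40.5 CPM in the Del(CBS1-4) libraries (log2 fold change 0.73 ± 0.08, adjusted p = 0.000106). Sirpa, a membrane receptor, had 44.6, 41.9 and 48.2 CPM in the Del(CBS1-5) libraries, against 71.0, 71.9 and 71.8 CPM in the Del(CBS1-4) libraries (-0.67 ± 0.08, adjusted p = 0.000174), and Mcm8, a helicase of DNA repair, had 35.3, 34.4 and 29.8 CPM in the Del(CBS1-5) libraries, against 18.8, 20.9 and 18.8 CPM in the Del(CBS1-4) libraries (0.77 ± 0.10, adjusted p = 0.000782). The libraries of the alleles did not overlap for any of these 3 genes. Polr1b and Sirpa were also among the 6 of the 1627 genes that were called between Del(CBS1-5) and WT, where 11 genes were called in all.

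**Figure D4:**
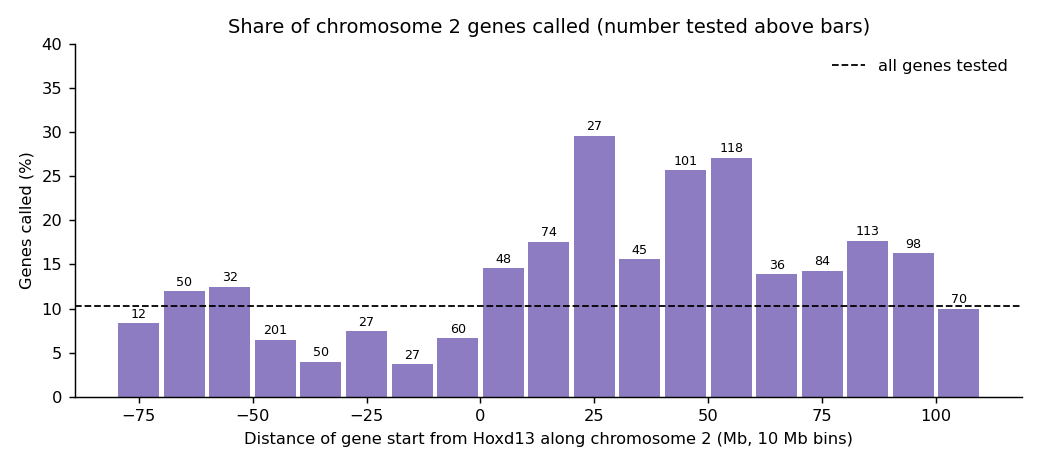
Percent of tested chromosome 2 genes called between Del(CBS1-5) and Del(CBS1-4), in 10 Mb bins of the distance of a gene's start from Hoxd13, with the number tested above each bar and a dashed line at the 10.3% of all genes. The bin next to Hoxd13 on the Evx2 side stands at 6.67% and the one on the Hoxd1 side at 14.6%. The bin from 20 to 30 Mb on the Hoxd1 side stands highest, at 29.6%, and those from 40 to 60 Mb at 25.7% and 27.1%.

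Relative to WT, the median log2 value of the erythroid list was 0.86 in Del(CBS1-5) and -0.64 in Del(CBS1-4). For chondrogenesis it was -0.15 in Del(CBS1-5) and 0.43 in Del(CBS1-4), for tendon and connective tissue -0.18 and 0.36 in the same order of alleles, and for proliferation 0.09 in Del(CBS1-5) and -0.18 in Del(CBS1-4). No member of these 4 lists was called in either comparison with WT. The medians share the WT libraries and are descriptions.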

How the data were processed

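Per the file headers, the authors deposited whole-number read counts for each Ensembl gene and Cufflinks FPKM values, both for all 36 libraries. Tools named in the submitters' processing notes are STAR 2.7.0, cutadapt 1.16, bedtools 2.27.1 and Cufflinks 2.2.1, with the genome mm10. The deposited counts are labelled as HTSeq counts. Whether reads were counted by strand, and how reads that match several genes were treated, is not stated. Overlapping, antisense or copied genes may therefore share reads. The count table holds 50833 genes and none of chromosomes X, Y or M. FPKM values cover 55052 genes, and depth behind them is that of the libraries, 11062069 to 17727891 counts. Replicates of both alleles differed by more than sampling noise (5.16 to 10.97 for chi-square over its degrees of freedom). Each library therefore counts as 1 replicate, and p-values set the difference between alleles against the spread of embryos within genotypes. Litters and founder lines are not given, so differences between them cannot be told apart from those of the alleles.

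Counts were tested with edgeR 4.0.16 in R 4.3.3 (TMM, filterByExpr on groups, glmQLFit and glmQLFTest), with the 18 proximal libraries in 1 fit. Called genes are those with an adjusted p (Benjamini-Hochberg, all tested genes) under 0.05. The effect in distal tissue was fitted likewise, and its difference from the proximal effect as an interaction over 36 libraries. Fold changes are Del(CBS1-5) over Del(CBS1-4) with SE. CPM use TMM factors of the tissue's own 18 libraries unless stated. Alternatives were DESeq2 1.42.0, limma 3.58.1 on log2(FPKM + 1) or log2(FPKM + 0.1), other filters, scalings, library sets and covariates, and each replicate left out. Proximal and distal libraries of the same number and genotype deviated together (r from 0.162 to 0.503 in all 18 pairs). A block for the embryo was therefore tried on the interaction as an alternative. Unless stated, interaction values and their p are from the fit without this block, which takes these libraries as independent. On simulated data for this contrast (15579 genes), the test recovered 76.1% of genes changed 1.5-fold, 92.5% of those changed 2-fold and 100% of those changed 3-fold, and 14 of 193 calls (7.25%) were false. The changed genes were drawn from the more highly expressed ones, and each gene was simulated on its own. Recovery of low genes, and shifts of many genes together in 1 embryo, are therefore not covered.

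Members, lists and tests were chosen with earlier results of these data known. Named are the HoxD genes and neighbours, called genes of chromosome 2 from 73000000 to 76000000, up to 14 genes per direction by fold change among called genes with at least 50 counts on average in the higher group and no overlap, and up to 4 called members of each list by smallest p. The other genes of the text (Epb42, Klf1, Hbb-y, Hbb-bt, Hba-a1, Hba-a2, Acan, Col9a1, Col9a2, Sox9, Col2a1, Col1a1, Dcn, Tcf7l2, Met, Lbx1, Myog, Meis1, Hoxa13, Pcna-ps2, Eif3j1, and Polr1b, Sirpa and Mcm8) were chosen after their values were seen. Some results that these rules take are not reported here. Promoters are from RefSeq, GRCm38.p6, and 50-base words from GENCODE vM21 transcripts.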

Additional observations from a re-analysis of the deposited data

Results flagged for a closer look

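For 9 of the genes named above, the effect of the step from Del(CBS1-4) to Del(CBS1-5) differed between proximal and distal forelimb, by edgeR's interaction test with adjustment over 16292 genes. The values are proximal minus distal on the log2 scale. In the HoxD cluster, Hoxd10 had -0.68 (adjusted p = 0.00335) and Hoxd9 -1.43 (adjusted p = 0.00408). Grem1 had -2.97 (adjusted p = 0.00549), with opposite directions in both tissues, and Jag1, which also fell in proximal and rose in distal tissue, had -1.26 (adjusted p = 0.0162).

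Smpd3 had -3.26 (adjusted p = 0.0417), with 1.21, 0.762 and 2.52 CPM in the Del(CBS1-5) libraries, against 11.1, 5.67 and 14.7 CPM in the Del(CBS1-4) libraries of proximal tissue and at most 1.10 CPM in any distal library of either allele. Hoxc6 had 1.97 (adjusted p = 0.0305), against a distal log2 fold change of 0.14 ± 0.29. Smaller differences were found for Tbx18, a T-box gene of the proximal limb, at 0.48 (adjusted p = 0.0214), for Tcf7l2 at 0.52 (adjusted p = 0.0373) and for Crabp2 at 0.45 (adjusted p = 0.0290). With a block for the embryo, Tcf7l2 alone among the 9 lost its call (adjusted p = 0.0565). In all 16 alternatives Hoxd10, Hoxd9 and Grem1 remained called, while Jag1 lost its call in 5, Tbx18 in 4, Crabp2 in 7, Hoxc6 in 8, and Tcf7l2 and Smpd3 in 10 each. Whether the limbs were divided at the same level in both alleles was not tested.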

How the results depend on the processing

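All 105 called genes followed through the alternatives kept their direction, and 17 of them their call, in every one that was run on them (16 for Pkhd1l1, 18 at most). These genes were followed because they were called in the same libraries, so their kept direction is not a separate test. Leaving out 1 proximal library gave 110 to 2104 calls against 1627, with 57 to 930 higher and 53 to 1174 lower, and 0 to 2 HoxD calls. It gave HoxD log2 fold changes from -0.64 to 0.15 for Hoxd13, 0.38 to 0.68 for Hoxd12, 0.23 to 0.43 for Hoxd11, -0.071 to 0.033 for Hoxd10, -0.17 to 0.042 for Hoxd8, -0.11 to 0.081 for Hoxd4 and -0.25 to 0.16 for Hoxd3. Without proximal Del(CBS1-4) replicate 3 the interaction of Hoxd12 turned to -0.014 (up to 0.31 without proximal Del(CBS1-4) replicate 1). Interactions called numbered 20 to 294 with 1 library left out, against 117, and 197 with DESeq2. Limma called 1034 genes on log2(FPKM + 1) (448 lower), 1009 on log2(FPKM + 0.1) (431 lower) and 267 without a filter (167 higher, 100 lower). The muscle covariate gave 161 calls (72 higher, 89 lower) and a Hoxd8 value of 0.0073. Without a count filter 1444 genes were lower, and 3 HoxD genes were called: Hoxd13 (-0.27), Hoxd12 (0.52) and Hoxd11 (0.33). There was 1 HoxD call with DESeq2 (Hoxd11, 0.33), and 1, that of Hoxd12, with only the 6 libraries (0.52), with all 36 libraries (0.52) and with the replicate block (0.53). DESeq2, tried after seeing the data on the other comparisons, called 98 genes between Del(CBS1-4) and WT (edgeR 0) and 30 between Del(CBS1-5) and WT (edgeR 11). The causes were not tested.

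The replicate numbers did not pair the 2 alleles: same-numbered libraries deviated together with r = 0.0491, 0.0820 and 0.0408, although each correlated best with its own number. With the replicate block 1275 genes were called. With the embryo as a replicate block, 244 interactions were called, and Hoxd10 and Hoxd9 kept their calls. At 11062069 to 14387283 counts per library and 3 embryos per group, low genes such as Hoxd3 have wide intervals.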

Other observations

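Genes of chromosome X are held by the FPKM values and not by the counts. With limma on log2(FPKM + 1), 453 of them were tested in proximal forelimb, 23 rose and 13 fell in Del(CBS1-5) (7.95% called). Over all genes, the same test called 1034 of 13588, 586 higher and 448 lower. Alas2, the first enzyme of haem synthesis in red cells, averaged 10.4 ± 0.804 FPKM in Del(CBS1-5) and 5.70 ± 0.621 FPKM in Del(CBS1-4) (SD, n = 3 each), a log2 difference of 0.77 ± 0.14 (SE, adjusted p = 0.0132). It thus moved with the erythroid genes of the autosomes. Tnmd, the tendon protein tenomodulin, averaged 0.666 ± 0.387 FPKM in Del(CBS1-5) and 2.91 ± 1.22 FPKM in Del(CBS1-4), a log2 difference of -1.20 ± 0.33 (adjusted p = 0.0405). Bgn, the matrix proteoglycan biglycan, averaged 31.1 ± 5.52 FPKM in Del(CBS1-5) and 54.8 ± 6.80 FPKM in Del(CBS1-4) (-0.80 ± 0.17, adjusted p = 0.0190). Alas2 and Tnmd belong to the erythroid and tendon lists, and Bgn was chosen after its value was seen.

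Chromosome 2 also carries Frzb, a secreted Wnt antagonist of early cartilage, which had 114, 102 and 88.1 CPM in the Del(CBS1-5) libraries, against 34.0, 49.8 and 51.6 CPM in the Del(CBS1-4) libraries (log2 fold change 1.17 ± 0.21, adjusted p = 0.00606). It rose while the matrix genes of cartilage fell. It was chosen after its values were seen, and its WT libraries spread widely, with 97.1, 46.1 and 95.3 CPM.

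The genes Has2, which encodes a hyaluronan synthase, and Spp1, which encodes the bone matrix protein osteopontin, were chosen after their values were seen because they moved in opposite directions in the tissues. Has2 averaged 33.7 ± 3.24 CPM in Del(CBS1-5) and 47.1 ± 0.528 CPM in Del(CBS1-4) in proximal forelimb (log2 fold change -0.49 ± 0.10, adjusted p = 0.0101), against a distal log2 fold change of 0.56 ± 0.12, and its interaction was -1.06 ± 0.16, adjusted p = 0.00246. Spp1 averaged 0.839 ± 0.0709 CPM in Del(CBS1-5) and 2.88 ± 1.28 CPM in Del(CBS1-4) in proximal forelimb (-1.78 ± 0.36, adjusted p = 0.00915), against 1.79 ± 0.41 in distal forelimb, with an interaction of -3.58 ± 0.54, adjusted p = 0.00246. Both interactions were called in all 16 alternatives.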
